A study of Mus musculus with 6 samples.

Results

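The 47 genes described here encode elastic fibre proteins, proteoglycans and matricellular proteins, that is, parts of the extracellular matrix other than the collagens. They were taken by name from a table of 24239 genes measured in mouse ventricles, and all 47 were found in it, each in 1 row. The study compared 3 male C57BL/6 mice that received atrial pacing over 8 days with 3 sham mice, in which the catheter protocol was run without pacing, per the labels. All mice were 8 to 10 weeks old, and the labels name no transgene, mutation or drug in either group. Pacing came from a bipolar catheter placed in the esophagus close to the atria, with a stimulus every 80 ms for 45 min and, before and after, every 120 ms for 3 min. It was given daily for 5 days, then after 2 days without pacing on 3 further days. The atria were thus the paced chamber and the ventricles the tissue measured.

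An elastic fibre has a core of cross-linked elastin laid down on a scaffold of fibrillin microfibrils, and fibulins, emilins and microfibril-associated proteins join these parts. Small leucine-rich proteoglycans bind collagen fibrils and set their width, and latent TGF-beta binding proteins hold the growth factor TGF-beta in the matrix. Matricellular proteins such as periostin and the thrombospondins are secreted into the matrix but act mainly on cells, and in the heart most of these genes are expressed by fibroblasts, the cells of vessel walls and the epicardium.

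Values are FPKM, fragments per kilobase of transcript with library size divided out, which set levels of different genes on a scale corrected for length. The effective depth was 6276000 to 8908000 fragments per mouse, so that an FPKM of 1 on a length of 2 kb stood for 12.55 to 17.82 fragments. Genes listed as ventricular cardiomyocyte markers summed to 63670 to 87134 FPKM in every mouse, with Myl2 the largest part. Atrial markers also reached 429 to 14642 FPKM and lung and airway markers 318 and 1750 FPKM in pacing 2 and pacing 3 (2.105 to 7.43 FPKM in the other 4 mice), so these ventricle samples held RNA of other tissues in unequal amounts. A fold change here is the paced mean minus the sham mean of log2(FPKM + 1), and for genes of low level it understates the true ratio. Each was tested with limma over the 11994 genes whose mean FPKM reached 1, with Benjamini-Hochberg adjustment over all of them. In the sentences on single genes, 3 values per group stand in the order of mice 1, 2 and 3. In whole ventricle tissue, more cells of a type and more RNA per cell cannot be told apart.

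Most of the matrix genes stood higher in the paced ventricles, with a median log2 fold change of 0.33 against -0.01 over all genes tested. Of the 47 genes, 45 passed the filter on low values, and 38 of these 45 had a positive fold change, against 48.2% of all genes tested. At an unadjusted limma p under 0.05, 19 were higher and 0 lower, where the background was 5.17% higher and 3.69% lower of all genes. Values of the 3 paced mice all lay above those of the 3 sham mice for 12 genes and all below for 1, against 6.24% and 6.97% of all genes. No member passed the adjusted threshold, and neither did any other gene (0% of all genes). The lowest adjusted p of a member was 0.293, that of Mfap5, and the lowest of any gene was 0.107. With values rescaled to the same sum, centred on medians or quantile normalized, 19, 18 and 18 members were higher and 0 lower at an unadjusted p under 0.05, and 39, 35 and 36 were positive. Over all genes the same scalings turned 620 higher and 442 lower into 969 and 148, 514 and 609, and 537 and 581. The differences described next are therefore differences in level that did not pass the adjusted threshold in the fit of all 6 mice.

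In the authors' deposited comparison table, 17 of the 47 genes were called higher after pacing and 0 lower. Over all rows of the authors' deposited table, 1.23% were called higher and 0.152% lower, and over its rows with a mean group FPKM of at least 1, 2.45% and 0.308%. The authors' table pools the mice of a group into 1 value, and 16 of its 17 calls also had an unadjusted limma p under 0.05. The exception was Comp, whose 95% interval included 0. Conversely Dcn, Ltbp3 and Tnxb had an unadjusted limma p under 0.05 and were not called in the authors' deposited table.

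**Figure D1:**
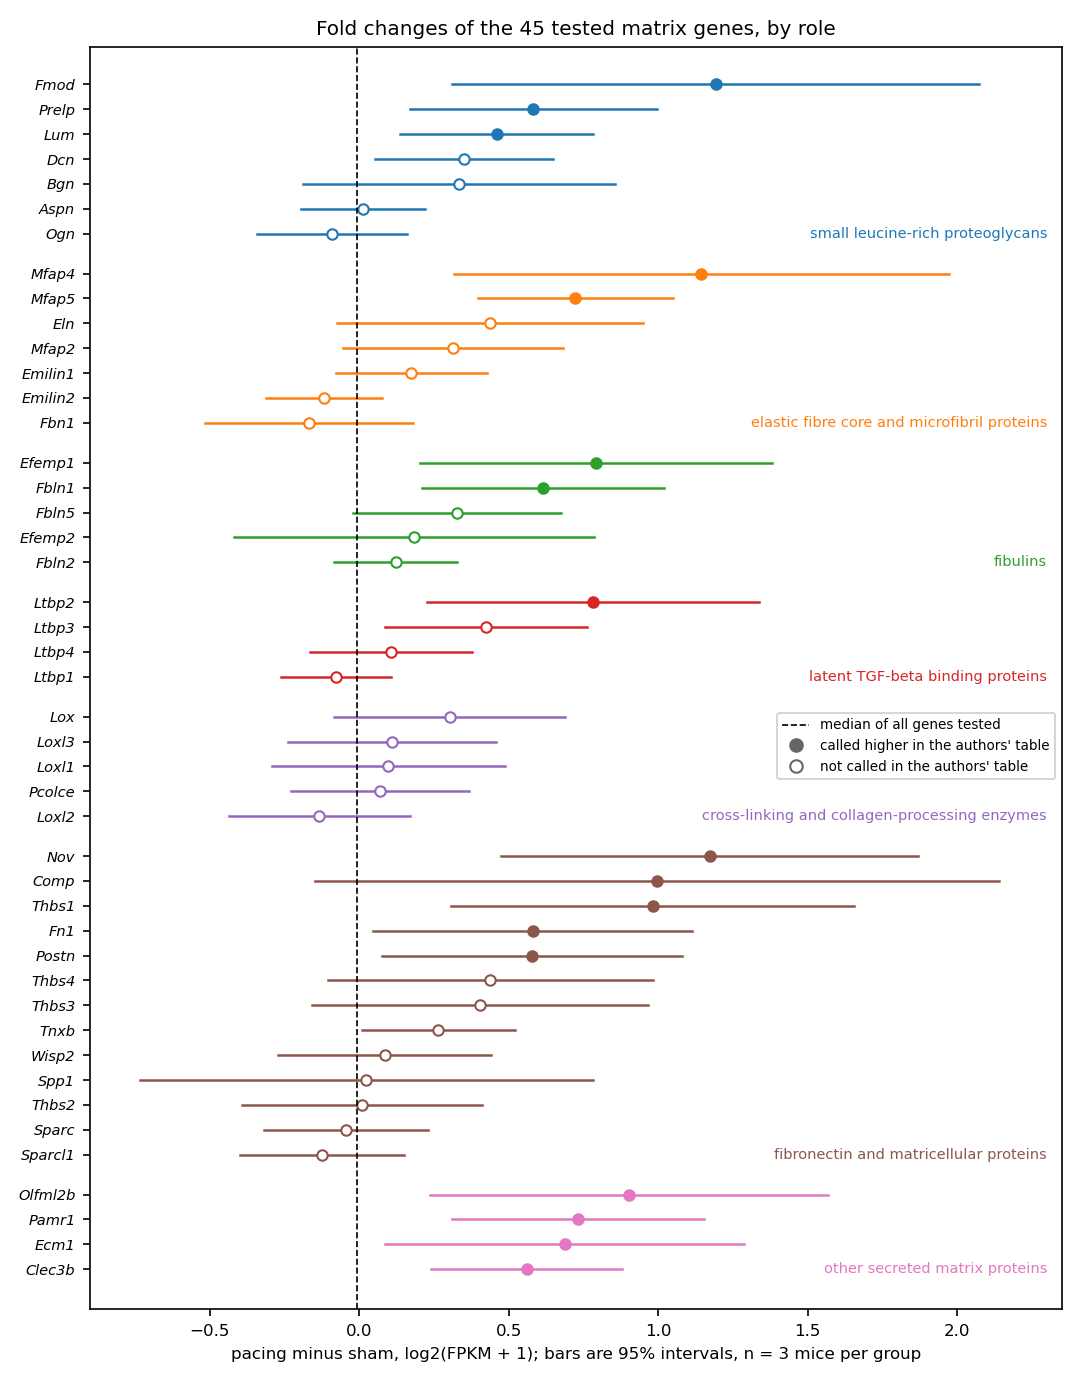
Log2 fold change of pacing over sham for the 45 tested matrix genes (points) with 95% intervals from limma (bars), grouped by role, filled where the authors' deposited table calls the gene higher. Of the 45 points 38 lie right of 0, the 4 genes of the last group all lie right of the dashed median of all genes, and every interval of the cross-linking enzymes spans 0.

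The small leucine-rich proteoglycans, which coat collagen fibrils, had 6 of 7 positive fold changes and 4 of 7 at an unadjusted p under 0.05, with a median of 0.35. Decorin, Dcn, the most abundant of all 47 transcripts, binds collagen and TGF-beta. It stood at 666, 572 and 587 FPKM in sham and 672, 741 and 931 FPKM in paced mice (log2 fold change 0.35, SE 0.13, limma adjusted p = 0.517). Its highest sham value and lowest paced value differed by little, and the groups did not overlap. Alone it made up 30.2% to 36.8% of the summed FPKM of the 47 genes in a mouse. Lumican, Lum, a keratan sulfate proteoglycan that spaces collagen fibrils, stood at 71.66, 52.2 and 55.96 FPKM in sham and 71.75, 80.5 and 95.7 FPKM in paced mice. Sham 1 lay just under pacing 1, and the other sham mice lay well below every paced mouse (log2 fold change 0.46, SE 0.14, limma adjusted p = 0.468). In the authors' deposited table Lum was called higher with a ratio of 1.38 and a q of 0.0183.

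Fibromodulin, Fmod, which like lumican binds collagen and limits fibril width, had the largest fold change of the 45 genes on the log2(FPKM + 1) scale. In the plain ratio of mean FPKM, Thbs1 (2.927), Ltbp2 (2.847) and Nov (2.474) stood above Fmod (2.225). Fmod stood at 13.3, 3.67 and 4.97 FPKM in sham and 11.02, 17.97 and 19.9 FPKM in paced mice (log2 fold change 1.19, SE 0.39, limma adjusted p = 0.476). Sham 1 lay above pacing 1, so the groups overlapped, while sham 2 and sham 3 were under every paced value. Prelp, which ties basement membranes to collagen, stood at 27.5, 18.1 and 19.2 FPKM in sham and 29.5, 28.2 and 40.5 FPKM in paced mice, with no overlap (log2 fold change 0.58, SE 0.18, limma adjusted p = 0.4696). Pacing 3 was the highest mouse for Prelp as it was for Dcn, Lum and Fmod.

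The remaining members of the family did not separate the groups. Biglycan, Bgn, the closest relative of decorin, stood at 244, 117 and 159 FPKM in sham and 186, 220 and 225 FPKM in paced mice, and sham 1 was the highest of the 6 mice (log2 fold change 0.33, 95% interval -0.19 to 0.86). Osteoglycin, Ogn, stood at 121, 113 and 115 FPKM in sham and 97.4, 103 and 129 FPKM in paced mice (log2 fold change -0.09, 95% interval -0.34 to 0.16). Asporin, Aspn, another collagen and TGF-beta binder, stood at 15.5, 18.4 and 15.98 FPKM in sham and 16.1, 17.02 and 17.2 FPKM in paced mice (log2 fold change 0.01, 95% interval -0.19 to 0.22), and with values centred on medians its fold change was -0.01. Both intervals lie within 0.5 of 0 on the log2 scale, so larger differences of Ogn and Aspn lie outside them.

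These 7 genes lie in part side by side. In the GENCODE M21 annotation of the mm10 genome, Dcn and Lum lie 46.98 kb apart on chromosome 10, Fmod and Prelp 115.8 kb apart on chromosome 1, and Ogn and Aspn 40.48 kb apart on chromosome 13. In the deposited table Dcn is placed at chr10:97479500-97518162, Lum at chr10:97565501-97572703, Prelp at chr1:133910304-133921401 and Fmod at chr1:134037515-134048277 in mm10. Both genes of the pairs on chromosomes 10 and 1 had an unadjusted p under 0.05, and neither gene of the pair on chromosome 13 did. The table gives Ogn and Aspn 1 merged position with Omd, Ecm2 and Cenpp, and it is not known here how reads from overlapping models were divided among them.

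The promoters of the pair on chromosome 1 are shown beside those of the pair on chromosome 13, as neighbouring pairs that differed in whether they stood higher in paced mice. With them stands Fbln1, the gene of smallest p for which RefSeq gives a window, followed by Prelp. The other 3 were chosen after their values were seen. Each line holds the 250 bases before the RefSeq start in GRCm38.p6, 5′ to 3′ on the strand of the gene, and capitals mark matches to the searched motifs.
Fmod (chr1:134037004-134037253, plus strand): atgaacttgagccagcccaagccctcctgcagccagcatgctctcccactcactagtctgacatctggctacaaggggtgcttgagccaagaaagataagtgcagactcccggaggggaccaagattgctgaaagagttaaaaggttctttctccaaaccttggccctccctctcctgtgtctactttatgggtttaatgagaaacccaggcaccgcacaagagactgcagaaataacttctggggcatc
Prelp (chr1:133921402-133921651, minus strand): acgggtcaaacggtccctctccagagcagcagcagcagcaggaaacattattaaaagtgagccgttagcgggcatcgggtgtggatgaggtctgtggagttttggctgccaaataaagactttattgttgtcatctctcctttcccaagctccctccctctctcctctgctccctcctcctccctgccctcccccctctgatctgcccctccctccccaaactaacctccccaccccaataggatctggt
Ogn (chr13:49607765-49608014, plus strand): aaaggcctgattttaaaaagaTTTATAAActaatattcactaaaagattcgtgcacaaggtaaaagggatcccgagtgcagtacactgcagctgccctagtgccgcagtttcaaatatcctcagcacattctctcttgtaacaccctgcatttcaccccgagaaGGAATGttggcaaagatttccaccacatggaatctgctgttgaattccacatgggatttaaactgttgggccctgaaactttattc
Aspn (chr13:49544193-49544442, plus strand): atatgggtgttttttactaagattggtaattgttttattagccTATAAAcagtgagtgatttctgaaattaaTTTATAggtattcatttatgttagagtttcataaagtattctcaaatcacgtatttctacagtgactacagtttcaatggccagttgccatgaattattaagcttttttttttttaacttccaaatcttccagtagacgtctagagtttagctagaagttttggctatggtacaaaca
Fbln1 (chr15:85205758-85206007, plus strand): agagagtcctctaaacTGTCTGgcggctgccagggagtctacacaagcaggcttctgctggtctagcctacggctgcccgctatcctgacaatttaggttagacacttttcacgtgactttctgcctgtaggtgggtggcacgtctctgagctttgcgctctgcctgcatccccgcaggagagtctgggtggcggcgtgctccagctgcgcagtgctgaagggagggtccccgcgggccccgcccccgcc

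Windows were found for 29 of the 47 genes. The motifs searched on both strands were TATAAA (the TATA box), TGANTCA (bound by AP-1), CATTCC (bound by TEAD) and CAGACA (a Smad element). TATAAA matches overlapped each other in 1 run of the Ogn window and stood apart in the Aspn window, and the Fmod and Prelp windows held none of the 4 motifs. Over the 29 windows TATAAA was in 7 (24.1%) against 12.4% of all 32851 windows, and CAGACA in 8 (27.6%) against 17.1%. TGANTCA was in 3 (10.3%) against 6.75%, and CATTCC in 4 (13.8%) against 12.6%. These matches describe letters in the windows and no binding was measured.

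Among the elastic fibre core and microfibril proteins, 5 of 7 fold changes were positive and 2 of 7 had an unadjusted p under 0.05, both of them microfibril-associated proteins. Mfap5, which binds fibrillin and elastin microfibrils, had the smallest p of all members. It lies at chr6:122513676-122529287 in mm10 and stood at 22.2, 15.1 and 19.3 FPKM in sham and 35.2, 31.5 and 28.1 FPKM in paced mice. Every paced mouse lay above every sham mouse by a clear margin (log2 fold change 0.72, SE 0.14, limma adjusted p = 0.293). Mfap4, a fibrinogen-related protein of elastic fibres, stood at 25.1, 8.66 and 9.701 FPKM in sham and 21.2, 32.7 and 37.8 FPKM in paced mice (log2 fold change 1.14, SE 0.36, limma adjusted p = 0.473). Its sham 1 value exceeded pacing 1, and sham 2 and sham 3 were the lowest of the 6 mice.

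Elastin itself, Eln, the fibre core, stood at 14.9, 7.33 and 7.85 FPKM in sham and 12.01, 14.1 and 13.8 FPKM in paced mice, so that sham 1 was the highest mouse while the other sham mice were the lowest (log2 fold change 0.44, SE 0.22, limma adjusted p = 0.642). Fibrillin, Fbn1, the main microfibril protein, went the other way in its mean, at 8.49, 7.82 and 5.61 FPKM in sham and 7.38, 5.79 and 5.86 FPKM in paced mice (log2 fold change -0.17, 95% interval -0.52 to 0.18). Mfap2, the other microfibril-associated glycoprotein, stood at 4.62, 4.19 and 4.18 FPKM in sham and 4.06, 6.697 and 6.45 FPKM in paced mice with pacing 1 under all sham mice (log2 fold change 0.31, limma adjusted p = 0.642). The emilins, which sit between elastin and microfibrils, had log2 fold changes of 0.17 for Emilin1 and -0.12 for Emilin2, with 95% intervals of -0.08 to 0.43 and -0.31 to 0.08.

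All 5 fibulins, which bridge elastin, microfibrils and basement membranes, had positive fold changes, and 2 of 5 had an unadjusted p under 0.05. Fbln1, a fibulin of elastic fibres and basement membranes at chr15:85206008-85286294 in mm10, stood at 37.5, 21.5 and 25.8 FPKM in sham and 39.4, 43.2 and 45.8 FPKM in paced mice. The groups did not overlap, though sham 1 came close to pacing 1 (log2 fold change 0.62, SE 0.18, limma adjusted p = 0.428). Efemp1, a fibulin of connective tissue and basement membranes, stood at 19.2, 8.07 and 10.8 FPKM in sham and 18.7, 21.2 and 24.8 FPKM in paced mice (log2 fold change 0.79, SE 0.26, limma adjusted p = 0.477), with sham 1 above pacing 1. Fbln2 stood at 25.9, 23.6 and 23.2 FPKM in sham and 24.7, 29 and 25.8 FPKM in paced mice, with a 95% interval of -0.08 to 0.33 around 0.12. Fbln5 and Efemp2, which bring elastin and lysyl oxidases together, had log2 fold changes of 0.33 (95% interval -0.02 to 0.68) and 0.18 (-0.42 to 0.79).

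Of the latent TGF-beta binding proteins, Ltbp2 and Ltbp3 were higher without overlap and Ltbp1 was lower without overlap. Ltbp2, the member of this family that binds microfibrils but not latent TGF-beta, stood at 1.19, 0.216 and 0.297 FPKM in sham and 1.88, 1.202 and 1.78 FPKM in paced mice (log2 fold change 0.78, SE 0.24, limma adjusted p = 0.4696). Sham 1 and pacing 2 were almost level, and sham 2 and sham 3 were far lower, at levels where few fragments were counted. Ltbp3, a carrier of latent TGF-beta, stood at 11.20, 7.31 and 7.40 FPKM in sham and 11.25, 11.96 and 11.98 FPKM in paced mice (log2 fold change 0.42, SE 0.15, limma adjusted p = 0.492). Ltbp1, the best known carrier, stood at 10.4, 10.1 and 10.1 FPKM in sham and 9.17, 10.01 and 9.72 FPKM in paced mice (log2 fold change -0.08, 95% interval -0.26 to 0.11). The gap between its groups was a small part of their level. Ltbp4, the most abundant of the 4, which also takes part in elastic fibre assembly, stood at 80.9, 65.6 and 64.8 FPKM in sham and 65.98, 82.8 and 78.9 FPKM in paced mice with wide overlap (log2 fold change 0.11, 95% interval -0.17 to 0.38).

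None of the 5 enzymes that cross-link or process matrix proteins had an unadjusted p under 0.05, and their median log2 fold change was 0.10. Lox, the lysyl oxidase that cross-links elastin and collagen, stood at 0.921, 1.02 and 1.15 FPKM in sham and 1.29, 1.197 and 2.11 FPKM in paced mice (log2 fold change 0.30, SE 0.17, limma adjusted p = 0.658). Its groups did not overlap, with pacing 3 well above the other paced mice. Pcolce, which speeds the removal of the procollagen C-terminal propeptide, stood at 62.3, 44.9 and 45.96 FPKM in sham and 51.6, 57.7 and 50.2 FPKM in paced mice. Loxl1, the oxidase tied to elastin, stood at 20.1, 12.8 and 11.9 FPKM in sham and 15.2, 16.2 and 15.5 FPKM in paced mice. In both of these sham 1 was the highest mouse of all, and the 95% intervals were -0.23 to 0.37 and -0.29 to 0.49. Loxl2 and Loxl3, further lysyl oxidases, had log2 fold changes of -0.13 (-0.43 to 0.17) and 0.11 (-0.24 to 0.46). The position of Loxl3 overlaps the genes Htra2 and Aup1, both of higher level.

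Fibronectin and the matricellular proteins formed the widest group, with 13 of 15 tested, 11 of 13 positive and 5 of 13 at an unadjusted p under 0.05. Nov, a CCN family protein that binds integrins, lies at chr15:54745928-54753761 in mm10 and stood at 5.01, 1.84 and 1.38 FPKM in sham and 7.37, 5.69 and 7.3 FPKM in paced mice. No sham value reached a paced value, though sham 1 was well above the other sham mice (log2 fold change 1.17, SE 0.31, limma adjusted p = 0.399). Thbs1, a thrombospondin that can activate latent TGF-beta, stood at 1.75, 1.28 and 0.934 FPKM in sham and 2.66, 2.38 and 6.57 FPKM in paced mice (log2 fold change 0.98, SE 0.29, limma adjusted p = 0.447). All paced mice were above all sham mice, and pacing 3 was well above pacing 1 and pacing 2.

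Fn1, fibronectin, the cell-binding glycoprotein of provisional matrix, stood at 12.6, 6.62 and 5.96 FPKM in sham and 10.9, 12.3 and 14.3 FPKM in paced mice (log2 fold change 0.58, SE 0.23, limma adjusted p = 0.542). Periostin, Postn, a matricellular protein made by activated fibroblasts, stood at 35.1, 17.9 and 20.97 FPKM in sham and 37.1, 30.9 and 40.1 FPKM in paced mice (log2 fold change 0.58, SE 0.22, limma adjusted p = 0.523). In both genes sham 1 lay inside the range of the paced mice, and sham 2 and sham 3 lay below it. Tnxb, a tenascin of loose connective tissue, stood at 11.8, 9.54 and 8.94 FPKM in sham and 12.1, 13.1 and 11.6 FPKM in paced mice, with sham 1 between pacing 3 and pacing 1 (log2 fold change 0.26, SE 0.11, limma adjusted p = 0.559). Comp, the cartilage oligomeric thrombospondin, at chr8:70373548-70382066 in mm10, stood at 11.6, 1.63 and 4.304 FPKM in sham and 6.68, 10.8 and 14.4 FPKM in paced mice. Here sham 1 lay above pacing 1 and pacing 2, and the 95% interval of the log2 fold change of 0.996 ran from -0.15 to 2.14. The authors' deposited table called Comp higher with a ratio of 1.81 and a q of 0.00328.

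The most abundant genes of this group did not differ in the same way. Sparc, a collagen-binding glycoprotein, stood at 262, 190 and 212 FPKM in sham and 209, 205 and 226 FPKM in paced mice, with sham 1 the highest (log2 fold change -0.04, 95% interval -0.32 to 0.23). With values rescaled to the same sum, the sign of this difference turned. Its relative Sparcl1 stood at 158, 199 and 164 FPKM in sham and 141, 157 and 179 FPKM in paced mice, with sham 2 the highest (log2 fold change -0.13, 95% interval -0.40 to 0.15). Thbs2 (log2 fold change 0.01, 95% interval -0.39 to 0.41) and Wisp2 (0.08, -0.27 to 0.44), a thrombospondin and a CCN protein, were also close to 0. The sign of Thbs2 turned with values centred on medians and with quantile normalization.

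Wider intervals were found for the other thrombospondins and for osteopontin. Thbs3 had a log2 fold change of 0.40 (-0.16 to 0.97) and Thbs4, a thrombospondin of muscle and tendon, of 0.44 (-0.10 to 0.98). Spp1, osteopontin, a cytokine-like matrix protein of macrophages and bone, stood at 2.82, 0.404 and 1.02 FPKM in sham and 1.18, 0.926 and 1.701 FPKM in paced mice, with sham 1 the highest and sham 2 the lowest mouse. Its log2 fold change of 0.02 had a 95% interval of -0.73 to 0.78, and its sign turned with values centred on medians and with quantile normalization. Tnc, a tenascin induced by injury, and Wisp1, a CCN protein, did not reach the filter. Tnc stood at 0.277, 0.0731 and 0.115 FPKM in sham and 0.143, 0.112 and 0.162 FPKM in paced mice and Wisp1 at 0.9498, 0.444 and 0.657 FPKM in sham and 0.8405, 0.903 and 0.832 FPKM in paced mice. Two-sided exact permutation tests gave p = 0.9 for Tnc and p = 0.4 for Wisp1, where 3 against 3 mice cannot go under 0.1.

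The 4 other secreted matrix proteins were all higher at an unadjusted p under 0.05, with a median log2 fold change of 0.71. Clec3b, tetranectin, which binds plasminogen, lies at chr9:123150946-123157432 in mm10 and stood at 63.4, 50.7 and 69.6 FPKM in sham and 105, 88.6 and 78.6 FPKM in paced mice (log2 fold change 0.56, SE 0.14, limma adjusted p = 0.3899). For Clec3b sham 3 and not sham 1 was the highest sham mouse, and the groups did not overlap. Pamr1, a secreted protein with a protease-like domain first tied to muscle regeneration, at chr2:102550021-102643040, stood at 2.67, 1.56 and 1.54 FPKM in sham and 3.18, 3.55 and 4.76 FPKM in paced mice (log2 fold change 0.73, SE 0.18, limma adjusted p = 0.3899). It too showed no overlap.

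Olfml2b, an olfactomedin domain protein that binds glycosaminoglycans, stood at 6.56, 2.12 and 2.56 FPKM in sham and 6.46, 7.797 and 7.36 FPKM in paced mice (log2 fold change 0.90, SE 0.29, limma adjusted p = 0.476). Ecm1, a glycoprotein that binds several matrix proteins, stood at 39.6, 16.6 and 19.97 FPKM in sham and 38.2, 39.8 and 38.2 FPKM in paced mice (log2 fold change 0.69, SE 0.26, limma adjusted p = 0.525). In these 2 genes the 3 paced mice lay close together, sham 1 was level with them, and sham 2 and sham 3 stood far lower.

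**Figure D2:**
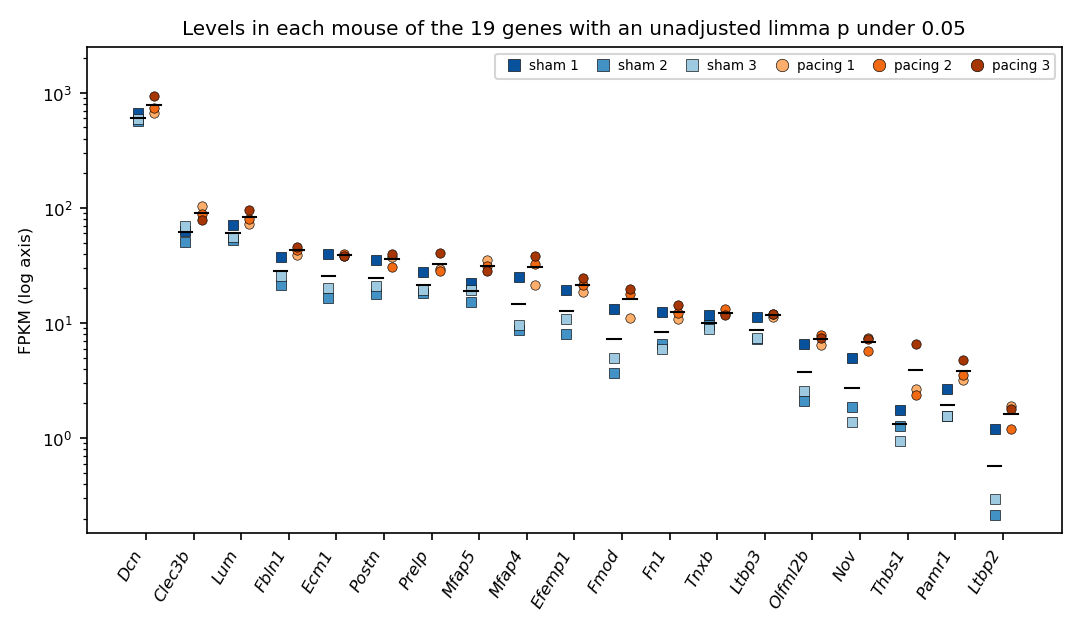
FPKM on a log axis in each mouse (squares sham, circles paced, short lines group means) for the 19 genes with an unadjusted limma p under 0.05, in order of level. The darkest squares, sham 1, sit nearest the paced mice in all but Clec3b, where sham 3 does. Of the 19 genes, 11 show no overlap between the groups (6.24% of all genes tested were higher without overlap). Choosing genes by p from these same mice favours such a lack of overlap.

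The sham mice did not form a tight group for these genes. Sham 1 was the highest sham mouse for 43 of the 47 genes, against 33.2% of all genes. Sham 2 was the lowest for 29 and sham 3 for 15, against 33.6% and 29.6% of all genes. The median deviation of a mouse from the mean of each gene was 0.15 on the log2 scale in sham 1, -0.41 in sham 2 and -0.23 in sham 3, and 0.06, 0.19 and 0.27 in pacing 1, 2 and 3. The median of sham 1 thus lay inside the range of the paced mice. The summed FPKM of the 47 genes was 2205, 1694 and 1788 in sham 1, 2 and 3 and 2057, 2228 and 2532 in pacing 1, 2 and 3. For 34 of the 47 genes the value of sham 1 was at or above the lowest paced value (32 of the 45 tested), and over all genes tested this held for 73.4%. The values of sham 2 and sham 3 were at or above it for 10 and 13 of the 47 genes, against 70.6% and 72.1% of all genes tested. For sham 1 it held for 8 of the 17 genes called in the authors' deposited table. For 31 of the 45 tested genes each paced mouse lay above both sham 2 and sham 3, against 15.3% of all genes. This also held for all 17 called genes. Those 17 were called from these same mice, so their counts are shaped by that choice.

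**Figure D3:**
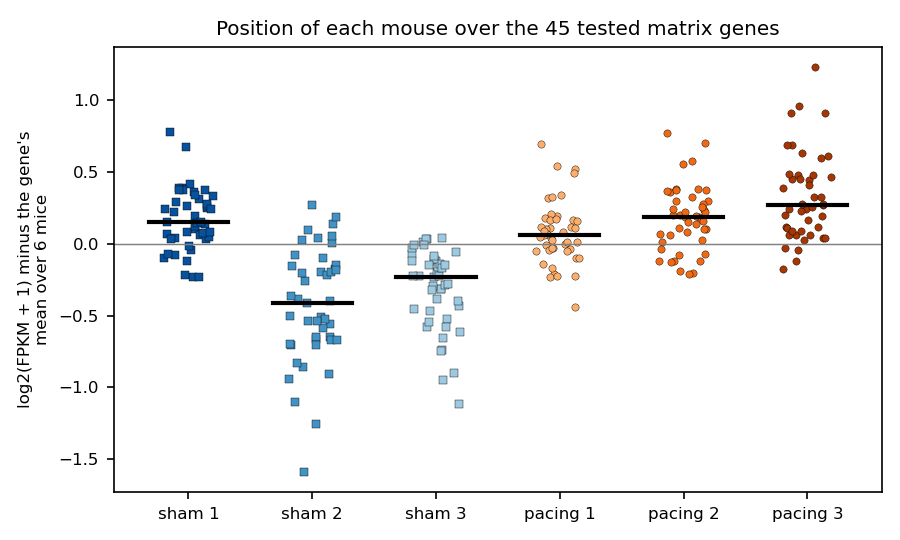
Each point is 1 of the 45 tested genes, placed by its log2(FPKM + 1) in a mouse minus its mean over the 6 mice, and black lines are medians. The median of sham 1 (0.15) lies between those of pacing 1 (0.06) and pacing 2 (0.19), and those of sham 2 and sham 3 lie below 0.

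With sham 1 left out, 12 of the 45 genes passed the adjusted threshold, against 0.835% of all genes. They were Fmod, Eln, Mfap4, Mfap5, Fbln1, Efemp1, Ltbp3, Fn1, Postn, Nov, Olfml2b and Ecm1. The lowest adjusted limma p values were 0.00647 for Nov and 0.00647 for Ecm1, with log2 fold changes of 1.57 and 1.05. Fmod reached a log2 fold change of 1.67 (limma adjusted p = 0.0207) and Mfap4 of 1.60 (limma adjusted p = 0.01897). Elastin reached 0.73 (limma adjusted p = 0.0269) without having been among the 19 genes of the full fit. Without sham 1, 28 genes were higher at an unadjusted p under 0.05 (8.3% of all genes), and 31 showed no overlap (15.3% of all genes). Nothing in the labels sets sham 1 apart, so this comparison of 2 sham and 3 paced mice is a description of how far the result depends on 1 mouse. Without sham 2, 11 genes were higher at an unadjusted p under 0.05 (3.61% of all genes), and without sham 3, 9 genes were (3.42%).

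**Figure D4:**
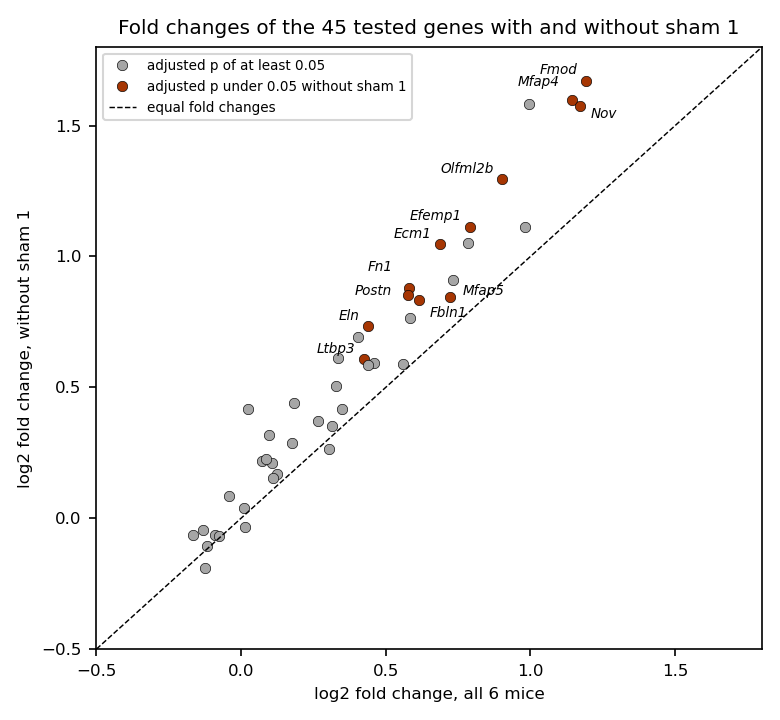
Log2 fold change of each of the 45 tested genes with all 6 mice (horizontal axis) and without sham 1 (vertical axis), in colour where the adjusted limma p was under 0.05 without sham 1. The 12 coloured genes lie above the dashed line of equal fold changes, which follows from sham 1 being the highest sham mouse for each of them. The highest is Fmod at 1.19 with all mice and 1.67 without sham 1.

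Of 68 further matrix proteoglycans and glycoproteins 45 were tested, 32 were positive, and 12 were higher and 0 lower at an unadjusted p under 0.05. Over all genes tested, 48.2% were positive, 5.17% higher and 3.69% lower. The smallest p belonged to Prg4, lubricin, which stood at 5.31, 3.61 and 2.79 FPKM in sham and 7.95, 7.43 and 9.07 FPKM in paced mice (log2 fold change 0.93, limma adjusted p = 0.287). Ctgf, a CCN family protein and TGF-beta target, followed at 28.8, 22.5 and 31.3 FPKM in sham and 39.4, 63.1 and 55.2 FPKM in paced mice (log2 fold change 0.90, limma adjusted p = 0.306). Chad, chondroadherin, a leucine-rich protein of cartilage, stood at 1.64, 0.256 and 0.01 FPKM in sham and 4.24, 3.04 and 10.04 FPKM in paced mice (log2 fold change 2.04, limma adjusted p = 0.315), where 0.01 is the value written for no fragment. None of these 3 genes, picked for the smallest p, showed overlap between the groups (6.24% of all genes tested were higher without overlap).

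Of 26 enzymes that build glycosaminoglycan chains, 19 were tested, 13 were positive, and 2 were higher and 0 lower at an unadjusted p under 0.05. Over all genes tested these shares were 48.2%, 5.17% and 3.69%. Chst12, a chondroitin sulfotransferase, stood at 4.51, 3.83 and 3.84 FPKM in sham and 6.03, 7.73 and 7.62 FPKM in paced mice (log2 fold change 0.68, limma adjusted p = 0.287). Dse, which makes the dermatan sulfate found on decorin and biglycan, stood at 3.06, 2.03 and 2.08 FPKM in sham and 3.35, 3.11 and 3.71 FPKM in paced mice, and the chondroitin polymerizing factor Chpf at 8.18, 7.23 and 7.14 FPKM in sham and 8.598, 9.39 and 8.21 FPKM in paced mice. All 3, picked for the smallest p, showed no overlap (6.24% of all genes tested were higher without overlap), with Chst12 the furthest apart. The list as a whole had a median log2 fold change of 0.06.

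Of 26 receptors of matrix proteins 21 were tested, with a median log2 fold change of 0.0027. Of the 21, 11 were positive, 4 higher and 0 lower at an unadjusted p under 0.05, against 48.2%, 5.17% and 3.69% of all genes. Lrp1, an endocytic receptor of thrombospondins, stood at 10.8, 8.72 and 7.63 FPKM in sham and 13.2, 12.5 and 13 FPKM in paced mice (log2 fold change 0.48, limma adjusted p = 0.3899). Itga8, an integrin chain that binds fibronectin, stood at 2.83, 1.85 and 1.42 FPKM in sham and 4.999, 2.503 and 5.46 FPKM in paced mice, and the collagen receptor Ddr1 at 10.7, 7.69 and 7.89 FPKM in sham and 11.3, 11.3 and 11.5 FPKM in paced mice. Lrp1 and Ddr1 showed no overlap (6.24% of all genes tested were higher without overlap), and the groups overlapped for Itga8. Of 12 TGF-beta ligands, receptors and Smads, all tested, 11 were positive (48.2% of all genes). At an unadjusted p under 0.05, 1 was higher (5.17% of all genes). This was the receptor Tgfbr2, at 20.3, 14.7 and 16.9 FPKM in sham and 22.3, 21.8 and 22.5 FPKM in paced mice (log2 fold change 0.35, limma adjusted p = 0.476). The ligand Tgfb3 had a log2 fold change of 0.32 and the co-receptor Tgfbr3 of 0.16, and Tgfb1 stood at 10.6 ± 0.921 FPKM in sham and 11.2 ± 0.763 FPKM in paced mice (SD, n = 3). None of these 4 lists held a gene that passed the adjusted threshold.

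Markers of cell types that a ventricle sample can hold moved with the matrix genes in part, and their part in the differences was not tested. The counts of every marker list stand beside shares over all genes tested of 48.2% positive, 5.17% higher and 3.69% lower. Of 16 fibroblast markers outside the members, 14 were positive and 5 were higher at an unadjusted p under 0.05. Their sum was 1680, 1191 and 1323 FPKM in sham 1, 2 and 3 and 1477, 1833 and 1824 FPKM in pacing 1, 2 and 3, so that sham 1 was again the highest sham mouse. The 5 higher markers were Pi16, Cd248, Col1a1, Col1a2 and Scara5, with log2 fold changes of 0.86, 0.63, 0.60, 0.54 and 0.40. The rest ran from -0.08 for Lamb1 to 0.38 for Dpt. Among them Pdgfra, Tcf21, Ddr2 and Thy1 had log2 fold changes of 0.12, 0.25, 0.09 and -0.04, all with overlap. Smooth muscle markers were higher at an unadjusted p under 0.05 in 5 of 8, and Myh11, the smooth muscle myosin, stood at 10.5, 10.3 and 9.31 FPKM in sham and 21.5, 13.2 and 17.8 FPKM in paced mice. Their sum, led by desmin of all muscle, was 732 to 892 FPKM in sham and 809 to 890 FPKM in paced mice.

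Adipocyte markers were tested in 8 of 9, all positive and 7 higher at an unadjusted p under 0.05. They summed to 321, 107 and 87.3 FPKM in sham 1, 2 and 3 and to 693, 432 and 369 FPKM in pacing 1, 2 and 3. Mesothelial markers, which also mark the epicardium, summed to 67.2, 23.0 and 37.9 FPKM in sham and 44.0, 92.7 and 97.7 FPKM in paced mice, with 8 of 8 positive and 4 higher. In both lists sham 1 was the highest sham mouse, as it was for the matrix genes.

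Atrial markers summed to 12648, 429 and 5292 FPKM in sham 1, 2 and 3 and to 5725, 14642 and 10461 FPKM in pacing 1, 2 and 3, with 6 of 6 positive and 0 at an unadjusted p under 0.05. Among sham mice, sham 2 was lowest and sham 1 highest in atrial markers. Sham 2 was the lowest for 29 of the 47 matrix genes (33.6% of all genes) and sham 1 the highest for 43 (33.2%). Among paced mice, pacing 2 was the highest in atrial markers and pacing 3 for 26 of the 47 matrix genes (32% of all genes). Pacing 1 was the lowest paced mouse in atrial markers, and for 26 of the 47 matrix genes (34.4% of all genes). The part of atrial tissue in the differences was not tested. Lung and airway markers were positive in 10 of 10 and higher in 8 at an unadjusted p under 0.05, with the high levels in pacing 2 and pacing 3. Without these 2 mice, 4 matrix genes were higher at an unadjusted p under 0.05, namely Mfap5, Clec3b, Thbs1 and Nov, against 3.02% of all genes, and Thbs2 was lower. In the same fit 6 members stood lower without overlap, against 25.6% of all genes. That fit rests on pacing 1 alone in its group, which is assumed to vary as the sham mice do. Mfap5 then had a log2 fold change of 0.88 and Clec3b of 0.77, against 0.72 and 0.56 with all mice, and the median over the members was 0.21.

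Macrophage markers were positive in 8 of 8 with 1 higher at an unadjusted p under 0.05, and their sums were 322, 205 and 252 FPKM in sham and 387, 301 and 394 FPKM in paced mice. Endothelial markers had 0 of 8 positive and 2 lower, and ventricular cardiomyocyte markers 0 of 8 positive and 2 lower. Of 12 cartilage and tendon markers 2 were tested, Chad and Scx, both higher at an unadjusted p under 0.05, while the cartilage genes Matn1 and Matn3 had no fragment in any mouse. Platelet and Schwann cell markers had 2 tested genes each, all positive, with 1 platelet gene higher.

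**Figure D5:**
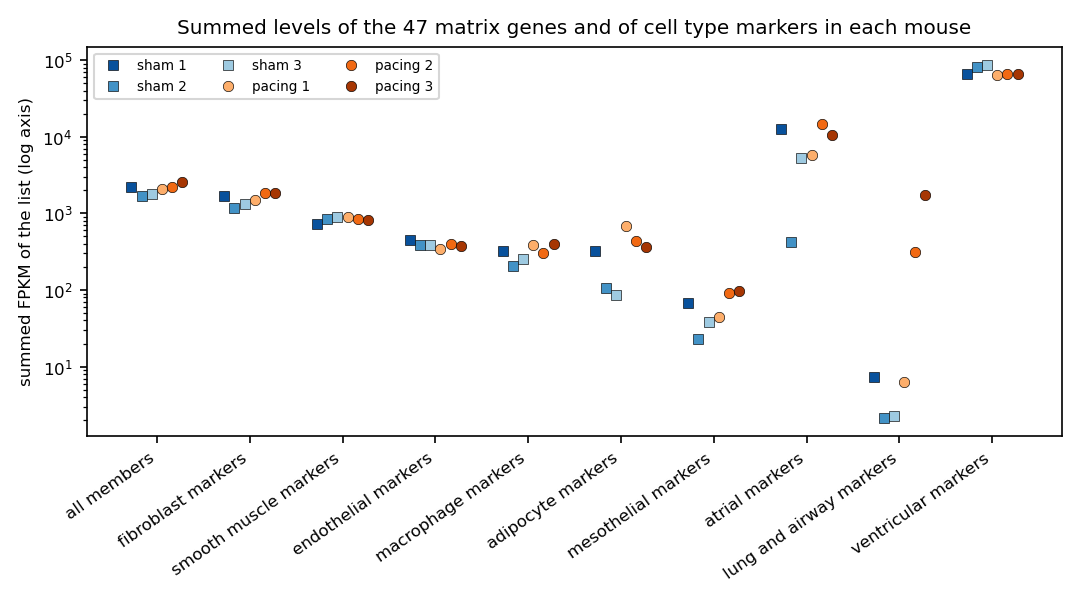
Summed FPKM on a log axis of the 47 matrix genes and of 9 marker lists in each mouse (squares sham, circles paced). The matrix genes span 1694 to 2532 FPKM, while atrial markers span 429 to 14642 FPKM and lung and airway markers reach 318 and 1750 FPKM in pacing 2 and pacing 3.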

How the data were processed

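Stranded polyA libraries of 151-base paired reads were made from frozen ventricles, per the labels' protocols. The aligner TopHat2 2.1.0 with Bowtie2 2.2.6, the quantifiers Cuffdiff and Cufflinks and the build mm10 are listed in the submitters' processing notes. Which gene annotation, filters and strand setting the counting used is not given in the sources here, so antisense overlaps were not separated. The authors deposited FPKM per gene and mouse, with 0.01 where no fragment is reported, and a comparison table with FPKM per group and a q-value, per the file headers. The ratio of pacing over sham printed from the authors' table is that of their deposited group FPKM values. Depth came from the steps of values in 640 genes of 1 exon. Of these, 47 to 61 values per mouse were low enough to be checked, and 100% of those were whole within 0.05 of a fragment. Counting error is larger at low depth and is only part of the spread between mice. File starts count from 0 and were raised by 1. The row with a failed estimate was left out.

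The test was limma 3.58.1 (R 4.3.3) on log2(FPKM + 1) of genes whose mean FPKM reached 1 (eBayes with a trend, group only, two-sided), all 6 mice, 3 per group as labelled, with Benjamini-Hochberg adjustment. The series text describes separate animals. No gene list was tested as a set. Counts, medians and summed levels describe the lists. Of the 68 further matrix proteoglycans and glycoproteins 6 are also in other lists, and of the 47 members 0 are. Members, lists and tests were chosen with earlier results of these data known. Values per mouse were to be given for members at an unadjusted p under 0.05, called in the authors' table, without overlap or among the 2 most abundant of a role, and for the 3 genes of smallest p in each pathway list. Eln, Fbn1, Mfap2, Ogn, Aspn and Spp1 were added after their values were seen. Promoters are from RefSeq, GRCm38.p6. Alternatives were the pseudocount, filter, scaling, trend, a replicate block and left-out mice.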

Additional observations from a re-analysis of the deposited data

How the results depend on the processing

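With 3 mice per group and no gene past the adjusted threshold, single genes rest on small numbers, and genes under 1 FPKM on few fragments. Of 344 values under 16 alternatives of the 22 members with an unadjusted p under 0.05, called in the authors' table or without overlap between groups, 333 kept their direction and their side of the adjusted threshold and 11 passed it, all without sham 1, and none turned in sign. Outside these 22, the signs of Sparc, Thbs2, Spp1 and Aspn, all close to 0, turned under another scaling. Over the mice left out one at a time, members higher at an unadjusted p under 0.05 ranged from 9 to 28. The 9 were without sham 3 (3.42% of all genes) and the 28 without sham 1 (8.3% of all genes). Members lower ranged from 0 to 1 (Fbn1, without sham 3). Members past the adjusted threshold ranged from 0 to 12 (without sham 1, 0.835% of all genes). Members higher without overlap ranged from 12 to 31 and members lower without overlap from 1 to 3. The 31 were without sham 1, where 15.3% of all genes were higher without overlap, against 6.24% with all mice. A lack of overlap is easier to reach with fewer mice, so these ranges are not results about the members alone. A filter at a mean FPKM of 5 left 7 members higher without overlap, since fewer genes were tested, and rescaling to the same sum left 0 lower. Without pacing 2 and pacing 3 there were 4 members higher and 1 lower at an unadjusted p under 0.05 and 6 lower without overlap (25.6% of all genes), with 44 members tested. With a replicate block 18 members were higher and 0 passed the adjusted threshold. Deviations of same-numbered mice correlated at -0.125, -0.0225 and -0.0201 over genes, and those of mice with unlike numbers at -0.1 to 0.113. The same-numbered mice were thus no more alike. The labels do not say that the numbers pair the mice, and these values cannot exclude it. The cause of the changes under the alternatives was not tested.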

Other observations

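Other matrix genes outside the 47 also stood higher in paced ventricles at an unadjusted limma p under 0.05, and those given here were chosen after their values were seen. Abi3bp, a matrix protein that binds integrins and cells, stood at 4.76, 3.07 and 2.49 FPKM in sham and 5.68, 5.804 and 9.19 FPKM in paced mice (log2 fold change 0.83, limma adjusted p = 0.399). Srpx, a sushi-repeat protein, stood at 3.97, 1.66 and 2.37 FPKM in sham and 5.46, 5.18 and 5.34 FPKM in paced mice (log2 fold change 0.84, limma adjusted p = 0.3896). Npnt, nephronectin, a ligand of the integrin that holds Itga8, stood at 1.66, 0.273 and 0.191 FPKM in sham and 2.43, 2.23 and 5.36 FPKM in paced mice (log2 fold change 1.38, limma adjusted p = 0.399). In these 3 genes every paced mouse lay above every sham mouse, and sham 1 was the highest sham mouse.

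Further genes of procollagen C-propeptide removal, the step that Pcolce speeds, had positive fold changes. Pcolce2, the paralog of Pcolce, stood at 18.8, 15.6 and 18.4 FPKM in sham and 26.7, 20.7 and 21.5 FPKM in paced mice with no overlap (log2 fold change 0.36, limma adjusted p = 0.476). Bmp1, the protease, stood at 14.93, 12.4 and 13.6 FPKM in sham and 16.4, 18.9 and 14.91 FPKM in paced mice (log2 fold change 0.27, limma adjusted p = 0.542), with sham 1 above pacing 3 by a small margin. The difference between these genes and Pcolce was not tested. Among fibroblast markers, Pi16 stood at 31.9, 21.8 and 30.7 FPKM in sham and 81.6, 47.7 and 34.6 FPKM in paced mice. Cd248 stood at 4.65, 4.55 and 3.86 FPKM in sham and 10.1, 6.52 and 5.86 FPKM in paced mice. In both pacing 1 was the highest mouse. The sum of all 16 fibroblast markers was instead lowest in pacing 1 among paced mice, at 1477 FPKM against 1833 and 1824 FPKM. Pacing 3 was the highest paced mouse for 26 of the 47 matrix genes, against 32% of all genes.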
